A study of Apis mellifera with 20 samples.

Results

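The comparison followed N6-methyladenosine (m6A) enrichment of messenger RNA in honeybee (Apis mellifera) queen larvae of instar 5 (5Q) against queen larvae of instar 3 (3Q). It was chosen by its groups, as the IP minus input difference in 5Q less the same difference in 3Q on the log2(FPKM + 1) scale, and it used 8 of the 20 libraries of the series. The groups were 5Q IP, 5Q input, 3Q IP and 3Q input, with 2 libraries each. IP libraries were made from RNA fragments of whole larvae pulled down with an m6A antibody, and input libraries from fragmented polyadenylated RNA without the pulldown. The other 12 libraries come from larvae of instar 1 (1D), which can still become queens or workers, and from worker larvae of instars 5 (5W) and 3 (3W), all female brood from the apiary of 1 institute. No treatment or mutation was applied, and the labels do not say how many larvae were pooled, how diet was controlled or whether replicates were separate collections. The p-values therefore measure only the spread between these libraries, which may be technical.

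m6A is a methyl group that a methyltransferase complex of METTL3, METTL14 and partner proteins places on adenosines inside messenger RNA. Reader proteins of the YTH family bind it, and the mark is known to bear on the splicing, translation and decay of transcripts. Queens and workers are female castes that arise from the same kind of egg when larvae are fed differently. Instar 5 is the last larval feeding stage, after which the larva spins its cocoon and pupates, and the series asks how the mark changes over larval development and between castes.

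Enrichment was measured here per gene model, as the fragments mapped to a model in IP relative to input. One value covers a whole model, so single m6A sites cannot be seen. No pulldown without the m6A antibody was among the libraries, so the ratio is not a measured level of the mark. The values are FPKM, which count fragments relative to the length of a model and the size of its library, divided by a factor per library that sets the typical model to the same level in all 8. Directions are therefore relative to the typical model. The deposited tables give model IDs without gene names, and none could be matched to the RefSeq gene table (0 of 15314), so models are given by ID and position, with no gene name and no function. The genome build is not given in the sources used here, and coordinates are quoted as deposited.

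The 8 libraries summed to 555784 to 762944 FPKM, and their read depth is unknown. Between 9092 and 10854 models were above 1 FPKM. The 5Q input libraries listed 4292 and 5182 models at 0, against 3184 and 3296 in 3Q input, while the 5Q IP libraries listed 1693 and 1734 at 0, against 2626 and 2433 in 3Q IP. Replicates also differed more in 5Q. The median absolute log2 difference between replicates was 0.34 in 5Q IP and 0.44 in 5Q input, against 0.22 in 3Q IP and 0.20 in 3Q input. The labels give no batch, so instar cannot be told apart from how the 5Q libraries were made, and the part of this wider spread in the results below was not tested.

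The first result is that transcripts stood less far apart in the pulldown of 5Q than in that of 3Q. The log2 ratio of IP to input of the same replicate number had an SD across the 10427 tested models of 0.65 and 0.81 in 5Q, against 1.05 and 1.08 in 3Q. The 5Q and 3Q values did not overlap, but 2 against 2 values cannot reach 0.05 (exact two-sided permutation p = 0.333, the smallest possible). At least a 2-fold higher level in IP was listed for 8.67% and 11.5% of the models in 5Q, against 18.7% and 19.7% in 3Q. At least a 2-fold lower level in IP was listed for 2.15% and 5.40% in 5Q, against 10.7% and 11.3% in 3Q. Across models, IP and input were more alike in 5Q, with Pearson's r of 0.892 to 0.945 over the 4 combinations of libraries, against 0.833 to 0.874 in 3Q. These are correlations across models that share libraries, given as a description.

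**Figure D1:**
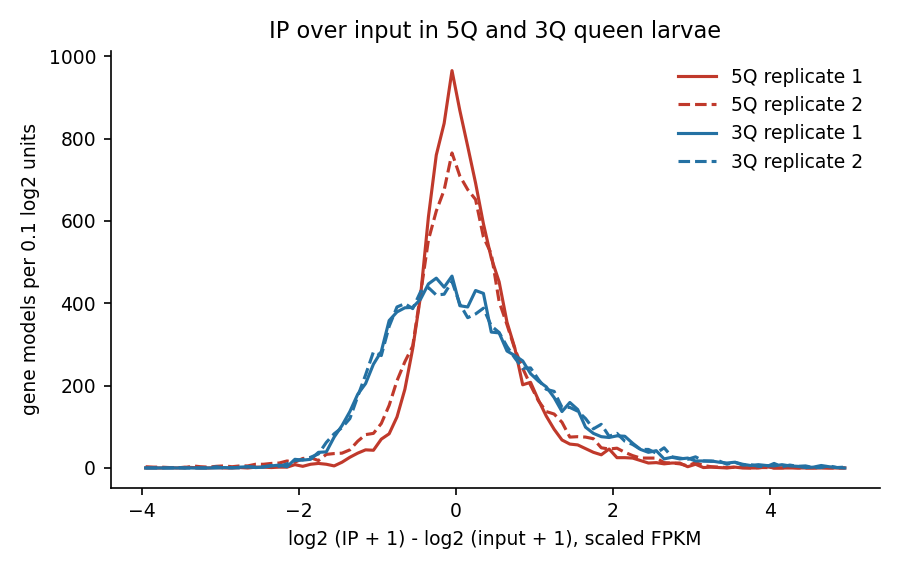
Number of gene models (y axis) by log2 ratio of IP to input of the same replicate number (x axis, in bins of 0.1 log2 units), for 5Q replicates in red and 3Q replicates in blue. The 5Q curves are narrow, with SDs of 0.65 and 0.81, and the 3Q curves are broad, with SDs of 1.05 and 1.08.

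Counts of enriched and depleted models showed the same contrast within each instar. In 5Q, 113 models (1.08% of those tested) were higher and 50 (0.48%) lower in IP than in input, by limma at an adjusted p under 0.05. In 3Q, 1955 models (18.7%) were higher and 1442 (13.8%) lower. Of the 1955 models enriched in 3Q, 53 were also called enriched in 5Q, 1900 passed in neither direction, and 2 were called depleted. The 53 had a median log2 ratio of 1.87 in 5Q against 1.70 in 3Q. The 1900 had 0.31 in 5Q against 1.54 in 3Q. The 53 and the 1900 were split by whether the 5Q ratio passed, so their 5Q medians follow largely from the split. Of the 1442 models depleted in 3Q, 19 were also called depleted in 5Q. The 163 calls in 5Q were 1 without either 5Q IP library, 1172 and 221 without 5Q input replicates 1 and 2, 6 without either 3Q IP library, 7 without either 3Q input library, 6 with a weight per library and 875 with no filter on low values. The 3397 calls in 3Q were 1645 and 1047 without 3Q IP replicates 1 and 2, 1040 and 1505 without 3Q input replicates 1 and 2, and 5775 with a weight per library. The split of the 1955 into 53, 1900 and 2 models rests on these counts. Passing in 3Q and not in 5Q does not show a change, and the change itself was tested as the difference of the differences.

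The change in enrichment passed the test for 769 of 10427 models (7.38%; limma, adjusted p under 0.05). It was higher in 5Q for 229 models (2.2%) and lower in 5Q for 540 (5.18%), and 228 of the 229 and all 540 changed by at least 2-fold. The 540 models with lower enrichment were nearly all pulled down in 3Q: 518 were called enriched there, and their median log2 ratio was 0.19 in 5Q against 2.16 in 3Q. The 229 models with higher enrichment were mostly depleted from the pulldown in 3Q: 180 were called depleted there, and their median log2 ratio was 0.26 in 5Q against -1.25 in 3Q. In 515 of the 540 and 172 of the 229 the ratio was nearer to 0 in 5Q than in 3Q. These makeups follow in part from the contrast, since the 3Q ratio enters it. The share over all tested models was not counted, so the 515 and 172 cannot be called particular to the calls. Among models picked by their 1D log2 ratio, 647 of the 661 at 2 and over (97.88%) were nearer to 0 in 5Q. So were 1221 of the 1325 under -1 (92.15%). All 769 changed in the same direction in both same-numbered sets of libraries. The 769 were called on these same libraries, so this agreement follows from the selection and is not separate evidence.

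**Figure D2:**
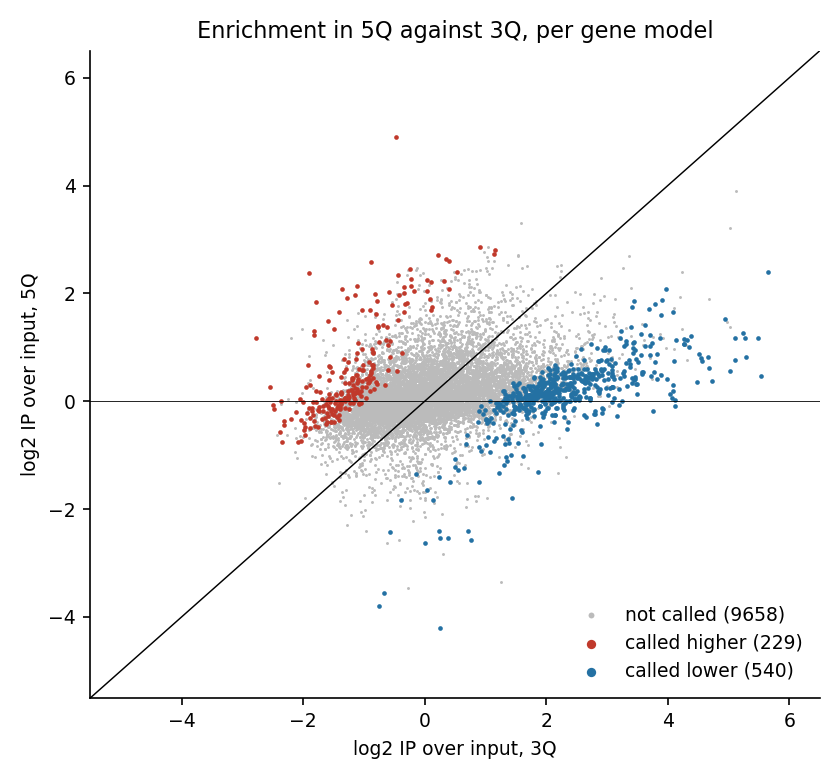
Log2 IP over input in 5Q (y axis) against 3Q (x axis), 1 point per gene model, means of 2 libraries per group. Models called lower in 5Q (540, blue) lie at the right, near 0 in 5Q. Models called higher (229, red) lie mostly at the left and above the diagonal of equal ratios. The 9658 models in grey were called in neither direction and form a cloud flatter than the diagonal.

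The number of calls depended on which libraries were kept. Without 1 library the count was 205 and 500 (5Q IP replicates 1 and 2 left out), 1666 and 1206 (5Q input), 23 and 3 (3Q IP) and 5 and 32 (3Q input). Of the 769, those still called were 190 and 383 without 5Q IP replicates 1 and 2, and 742 and 691 without 5Q input replicates 1 and 2. Only 21 and 3 were still called without 3Q IP replicates 1 and 2, and 4 and 32 without 3Q input replicates 1 and 2. Those of the 769 that were tested without a 3Q library all kept their sign. They were 766 without either 3Q IP library and 763 without either 3Q input library. These fits reuse libraries on which the 769 were called, so the kept sign is not separate evidence. With FPKM as deposited, without scaling, the median change of all models moved by 0.42 on the log2 scale. There 968 models were called higher and 324 lower, and with quantile normalization 387 were called higher and 439 lower.

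The first-instar libraries, which the contrast does not use, gave an independent order of the models. Across the 10427 models, the 5Q ratio followed the 1D ratio loosely (Pearson's r = 0.367) and the 3Q ratio followed it closely (r = 0.961). The ratios of the replicates correlated with each other at r = 0.365 in 5Q and 0.946 in 3Q. The correlations with 1D used means over replicates, and those between replicates used single ratios, so their sizes cannot be compared directly. The part of the low agreement between 5Q replicates in the loose match to 1D was not tested. In the 201 models with a 1D log2 ratio of 3 and over, the median log2 ratio was 0.82 in 5Q against 3.37 in 3Q. In the 460 models with a 1D ratio from 2 to 3 it was 0.45 in 5Q against 2.21 in 3Q. The models depleted in 1D behaved alike with the opposite sign: the 1284 models from -2 to -1 had a median of -0.21 in 5Q against -1.14 in 3Q, and the 41 models under -2 had -0.33 in 5Q against -1.99 in 3Q. In the 3972 models from -1 to 0 the median was -0.01 in 5Q against -0.41 in 3Q. The order of the bins was thus kept in 5Q, at a fraction of its 3Q range.

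Of the 661 models with a 1D log2 ratio of 2 and over, 154 (23.3%) were at least 2-fold higher in IP in 5Q, against 657 (99.4%) in 3Q. Of the 1325 models under -1 in 1D, 63 (4.755%) were at least 2-fold lower in IP in 5Q, against 953 (71.9%) in 3Q. Lower enrichment in 5Q was called for 62.7% of the models with a 1D ratio of 3 and over and for 43.5% of those from 2 to 3, against 5.18% of all models tested. Higher enrichment was called for 34.1% of the models under -2 and 11.1% of those from -2 to -1, against 2.2% of all.

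**Figure D3:**
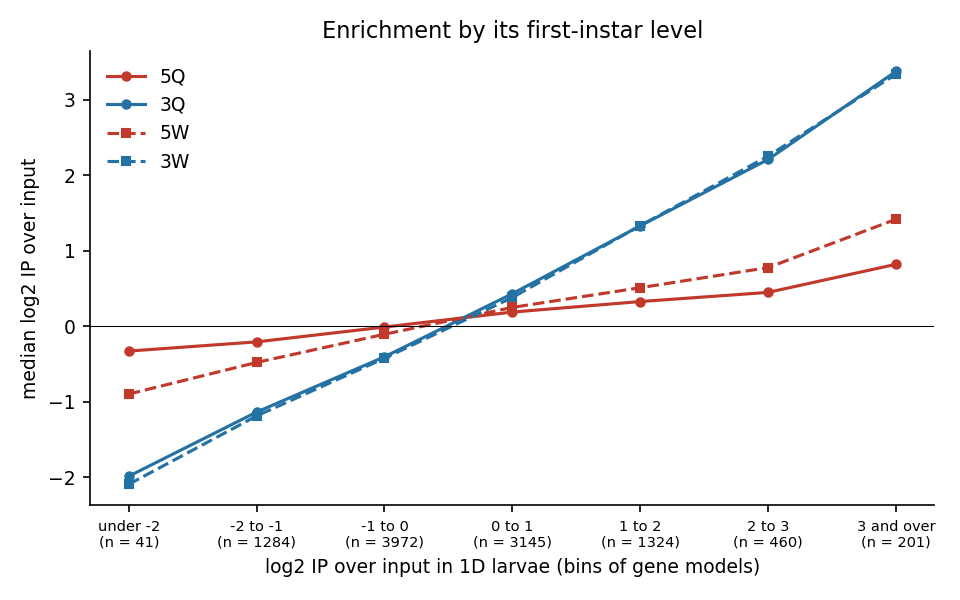
Median log2 IP over input (y axis) in 7 bins of gene models by their 1D log2 ratio (x axis, number of models under each bin), for 5Q and 3Q queens (solid) and 5W and 3W workers (dashed). In the top bin the 5Q line reaches 0.82 and the 3Q line 3.37.

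The change was compared in its parts, IP and input. Of the 540 models with lower enrichment, 487 had a lower IP level in 5Q and 11 a higher one, while input was lower for 148, higher for 98 and called in neither direction for 294. Their median log2 difference between 5Q and 3Q was -2.17 in IP and -0.20 in input. Of the 229 models with higher enrichment, 155 had a higher IP level in 5Q and 12 a lower one, and input was lower for 101 and higher for 33. Their medians were 1.11 in IP and -0.51 in input. Both parts enter the contrast by which the models were called, so these splits follow in part from the selection. The 4215 models called for input over all 10427 were 2320 and 2079 without 3Q input replicates 1 and 2. Over all 10427 models, the background was 24.9% higher and 26.9% lower for IP, and 18.9% higher and 21.5% lower for input. In whole larvae, less of a transcript per cell and fewer of the cells that make it cannot be told apart.

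A listed 0 in a table without counts may be a failed estimate, so the models listed at 0 were counted. Both 5Q input libraries were listed at 0 for 34 of the 229 (14.8%) and 23 of the 540 (4.26%), beside 325 of all 10427 (3.12%). At least 1 was listed at 0 for 55 of the 229 (24.0%) and 33 of the 540 (6.11%), beside 1158 of all (11.1%). Some group was listed at 0 in both of its libraries for 36 of the 229 (15.7%) and 25 of the 540 (4.63%), beside 437 of all (4.19%). Without these 36 and 25 models, the median change was 1.49 for the remaining 193 and -2.001 for the remaining 515, beside 1.59 and -2.02 with them. The remaining models were still picked as calls, and some still have 1 5Q input library listed at 0. The part of listed zeros in the changes was therefore not tested.

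The highest and lowest changes among the calls were each taken as the outermost 2 models. GB54055 (Group11.12, 142603 to 142857, plus strand) is a short model that was present in the pulldown of both instars. It had 32.9 and 24.99 scaled FPKM in 5Q IP and was listed at 0 in both 5Q input libraries, against 15.0 and 16.2 in 3Q IP and 21.3 and 23.0 in 3Q input. IP levels were thus higher in 5Q than in 3Q without overlap, and input was the other way round. Its change passed (limma adjusted p = 2.79e-03), but its size depends on the pseudocount because 5Q input is listed at 0.

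GB55246 (Group11.6, 1401142 to 1402272, plus strand) had 4.12 and 4.23 scaled FPKM in 5Q IP and was listed at 0 in both 5Q input libraries. In 3Q it had 1.64 and 1.37 in IP and 8.83 and 7.90 in input. It was therefore lower in IP than in input in 3Q and above an input listed at 0 in 5Q (limma adjusted p of the change = 4.85e-03). Without 3Q IP replicate 2 and without 3Q input replicate 1 it missed the threshold, at limma adjusted p of 0.0573 and 0.0540.

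At the other end, GB53599 (Group10.10, 247388 to 250313, plus strand) lost nearly all of its pulldown signal. It had 16.5 and 10.9 scaled FPKM in 5Q IP and 8.88 and 9.95 in 5Q input, against 789 and 688 in 3Q IP and 16.4 and 13.5 in 3Q input. Input levels did not overlap between the instars but lay near each other, and the 3Q IP libraries stood far above all others. The log2 change was -5.06 ± 0.34 (SE, n = 2 per group, limma adjusted p = 3.67e-03). SEs here and below come from 1 variance per model, shared by all 4 groups. They therefore do not show the spread of each instar, and replicates differed more in 5Q. GB53599 overlaps another model, and without strand the reads of overlapping models cannot be told apart.

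GB49103 (Group3.4, 139534 to 140570, plus strand) had 3.11 and 1.59 scaled FPKM in 5Q IP, against 175.8 and 163.5 in 3Q IP. Its input was 2.44 in 1 5Q library and listed at 0 in the other, against 2.74 and 4.06 in 3Q. The log2 change was -4.48 ± 0.77 (SE, n = 2 per group, limma adjusted p = 0.0234). The call was lost at a pseudocount of 0.1, with an adjusted p by limma of 0.293, and without each of the 5Q IP, 3Q IP and 3Q input libraries in turn, at limma adjusted p of 0.0580 to 0.110.

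**Figure D4:**
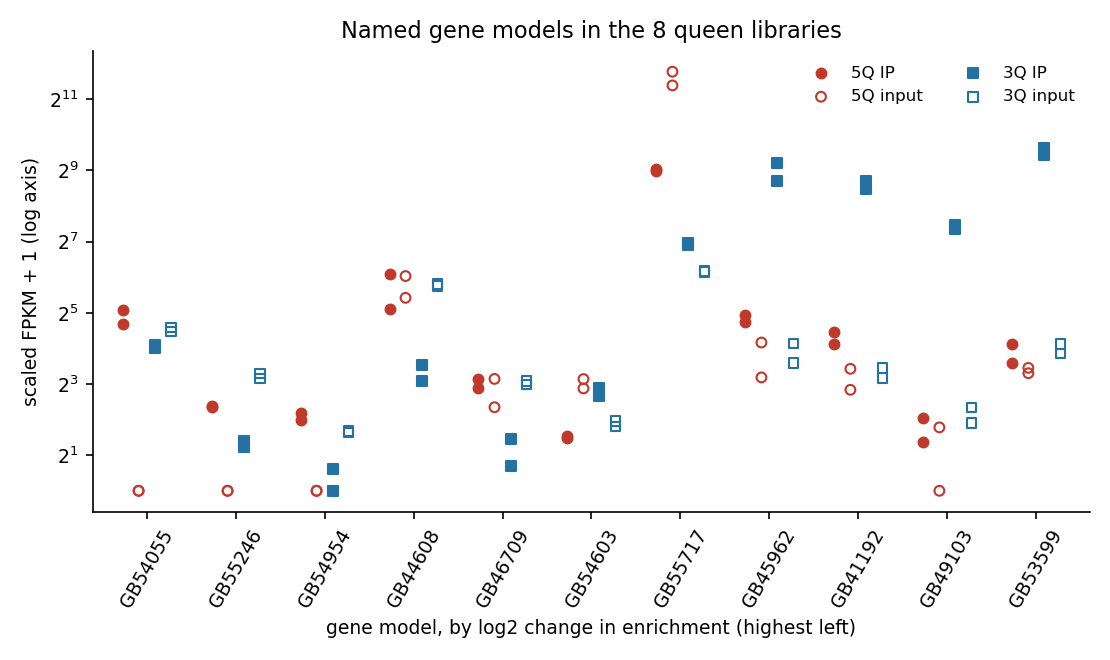
Scaled FPKM plus 1 (y axis, log axis) of the 11 named gene models (x axis, highest change in enrichment at the left) in each of the 8 libraries, IP filled and input open, 5Q in red and 3Q in blue. For GB45962, GB41192, GB49103 and GB53599 the filled blue squares stand far above every other point. For the 3 models at the left both open red circles lie at the bottom, where 5Q input is listed at 0.

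Models with nearly equal input in both instars were taken apart. Input was called stable where its log2 difference between 5Q and 3Q was under 0.5 either way and its mean was at least 4 scaled FPKM in both instars. Of the 2536 such models, enrichment was higher in 5Q for 62 (2.44%) and lower for 172 (6.78%), beside 2.2% and 5.18% over all models. The 172 had a median log2 ratio of 0.14 in 5Q against 2.05 in 3Q, and the 62 had -0.02 in 5Q against -1.44 in 3Q. The median IP difference between the instars was -1.96 for the 172 and 1.38 for the 62. With input nearly equal, the IP difference is nearly the change itself, with medians of -1.90 and 1.39. These ratios and differences therefore follow largely from how the models were picked. The 234 calls were 64 without 5Q IP replicate 1, 5 and 1 without 3Q IP replicates 1 and 2, 2 and 9 without 3Q input replicates 1 and 2, 155 with a weight per library and 570 with all 20 libraries in the fit.

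GB41192 (Group15.3, 256075 to 256931, minus strand) had the lowest change among them. It had 21.1 and 16.5 scaled FPKM in 5Q IP and 9.75 and 6.14 in 5Q input, against 353 and 415 in 3Q IP and 7.97 and 10.002 in 3Q input. Its input values of the instars overlapped, while its IP values lay far apart. The log2 ratio of IP to input was 1.17 ± 0.26 in 5Q and 5.27 ± 0.26 in 3Q, a change of -4.11 ± 0.37 (SE, n = 2 per group, limma adjusted p = 5.46e-03). It missed the threshold without 3Q IP replicate 2 and without 3Q input replicate 1, at limma adjusted p of 0.0622 and 0.0540.

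GB45962 (Group16.8, 103048 to 104469, plus strand) had 29.7 and 25.9 scaled FPKM in 5Q IP, against 419.6 and 589 in 3Q IP. Its input overlapped between the instars, with 16.9 and 8.10 in 5Q against 11.02 and 16.6 in 3Q. The change was -3.93 ± 0.51 (SE, n = 2 per group, limma adjusted p = 0.0137), and it missed the threshold without each of the 4 3Q libraries in turn, at limma adjusted p of 0.0595 to 0.0812.

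In the other direction, GB44608 (Group5.14, 1109566 to 1111487, plus strand) was far lower in IP than in input in 3Q and near its input in 5Q. It had 33.4 and 66.6 scaled FPKM in 5Q IP and 41.8 and 64.4 in 5Q input, against 10.5 and 7.497 in 3Q IP and 55.2 and 53.0 in 3Q input. IP and input overlapped in 5Q and were apart in 3Q. The log2 ratio was -0.14 ± 0.36 in 5Q and -2.48 ± 0.36 in 3Q, a change of 2.34 ± 0.51 (SE, n = 2 per group, limma adjusted p = 0.0400). It missed the threshold without a filter on low values (limma adjusted p = 0.0519) and without 5Q IP replicate 2 or any of the 4 3Q libraries, at limma adjusted p of 0.0645 to 0.162.

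GB46709 (Group5.9, 847960 to 848326, minus strand) had 7.85 and 6.36 scaled FPKM in 5Q IP and 7.84 and 4.09 in 5Q input. In 3Q it had 1.75 and 0.629 in IP and 6.94 and 7.47 in input. The change was 2.22 ± 0.51 (SE, n = 2 per group, limma adjusted p = 0.0445). This call is the least settled of those named, since it was lost in 9 of 17 other fits, with limma adjusted p of 0.0591 to 0.164 in them.

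Models that turned from depleted to enriched or the reverse were counted. The sign changed, with IP against input past the threshold in both instars, for 7 models, of which 5 were higher and 2 lower in 5Q. IP against input passed for only 163 models in 5Q, which limits how many could qualify. The count therefore does not show that turns were rare. GB55246, described above, and GB54954 (Group1.41, 63221 to 65002, minus strand) had the largest gains. GB54954 had 3.52 and 2.94 scaled FPKM in 5Q IP and was listed at 0 in both 5Q input libraries. In 3Q it had 0.539 in 1 IP library, was listed at 0 in the other, and had 2.12 and 2.22 in input (limma adjusted p of the change = 0.0132). All its values were low, and the call was lost without each of the 4 3Q libraries in turn, at limma adjusted p of 0.0527 to 0.0874. Across the 8 fits that left out a library, the number of models with a sign change ran from 0 to 111.

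GB55717 (Group6.38, 701641 to 702345, plus strand) was the most abundant of these. It had 507 and 523 scaled FPKM in 5Q IP and 2680.3 and 3500.2 in 5Q input, against 118 and 123 in 3Q IP and 69.8 and 71.7 in 3Q input. Its input was thus far higher in 5Q, with a log2 difference of 5.42 (limma adjusted p = 5.90e-06), while its IP level differed by 2.08 (limma adjusted p = 1.36e-04). The log2 ratio was -2.57 ± 0.19 in 5Q and 0.76 ± 0.19 in 3Q, a change of -3.33 ± 0.26 (SE, n = 2 per group, limma adjusted p = 4.85e-03). Without 3Q IP replicate 2 and without 3Q input replicate 1 the adjusted p by limma was 0.0573 and 0.0527.

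GB54603 (Group10.20, 89027 to 93741, plus strand) had 1.78 and 1.91 scaled FPKM in 5Q IP and 6.34 and 7.81 in 5Q input, against 6.38 and 5.31 in 3Q IP and 2.89 and 2.49 in 3Q input. IP lay below input in 5Q and above it in 3Q, with no overlap in either. The change was -2.39 ± 0.33 (SE, n = 2 per group, limma adjusted p = 0.0145), and the call was lost without each of the 4 3Q libraries in turn, at limma adjusted p of 0.0766 to 0.0947.

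One further model, GB43330 (GroupUn98, 15844 to 16065, plus strand), was chosen after its values were seen, because it took a large part of some libraries. It held 0.776% and 0.751% of the summed FPKM in 5Q IP, against 36.0% and 38.0% in 3Q IP. In input it held 0.188% and 0.330% in 5Q, against 9.715% and 11.25% in 3Q. Both its input and its IP level were thus far lower in 5Q, with log2 differences of -5.07 in input (limma adjusted p = 6.95e-05) and -6.002 in IP (limma adjusted p = 2.41e-05). Its enrichment was 1.62 ± 0.33 in 5Q and 2.55 ± 0.33 in 3Q, and the change of -0.94 ± 0.47 (SE, n = 2 per group) did not pass (limma adjusted p = 0.248). It was 0.25 with quantile normalization (limma adjusted p = 0.668) and -1.44 without 5Q input replicate 1 (limma adjusted p = 0.0325). FPKM is relative to the whole library, so the values of other models as deposited depend on the share of this one, and its part in the results was not tested.

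The called models were described by what the contrast did not use. By genomic span, lower enrichment was called for 6.9% of the 3303 models from 4 to 16 kb and 6.58% of the 805 from 16 to 64 kb, against 4.66% of the 1395 under 1 kb, 3.93% of the 4728 from 1 to 4 kb and 4.08% of the 196 of 64 kb and over. The share was thus not ordered by span. Higher enrichment was called for 3.3% of the models under 1 kb, 2.83% of those from 1 to 4 kb, 1.15% of those from 4 to 16 kb, 1.37% of those from 16 to 64 kb and 0 of the 196 longest. The median span was 1893 bp for the 229 models with higher enrichment and 4336.5 bp for the 540 with lower enrichment, beside 3240 bp over all tested models.

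By input level in 1D, higher enrichment was called for 9.15% of the 284 models at 256 scaled FPKM and over and for 5.22% of the 785 from 64 to 256, against 1.02% of the 4114 from 4 to 16. The median log2 ratio of the 284 most abundant models was 0.01 in 5Q against -0.46 in 3Q. Lower enrichment ran from 2.87% of the models from 1 to 4 FPKM to 6.62% of those from 16 to 64. The calls were spread over the genome. Over the 16 numbered scaffold sets (Group1 to Group16), lower enrichment was called for 2.85% to 7.79% of the tested models and higher enrichment for 1.35% to 2.85%. Among neighbouring models, 41 runs of adjacent models changed in 1 direction, 40 of them of 2 models and 1 of 3, on Group13.6 (240409 to 273152), where the log2 change was -2.67 to -2.22. Within the range of that run, 2 annotated models overlap another, and whether they belong to the run was not counted. Reads of overlapping models cannot be told apart without strand. The number of runs that calls scattered over the models would give was not worked out, so the 41 runs do not show clustering. Models that overlap another made up 21.8% of the models with higher and 20.2% of those with lower enrichment, beside 24.5% of all tested.

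The worker libraries, none of which the queen contrast uses, gave the same comparison in the other caste. In 5W against 3W, enrichment was higher for 417 (4.21%) and lower for 783 (7.9%) of 9915 models at the same threshold in limma. Of the 540 models lower in 5Q, 533 were tested in workers, 526 had the same sign there and 339 were called lower. Of the 229 models higher in 5Q, 210 were tested in workers, 206 had the same sign and 72 were called higher. None of the models called in queens was called in the opposite direction in workers. The median worker change was -1.55 for the models lower and 1.10 for the models higher in queens, beside 0.03 for all. Across 9741 models the changes of the castes correlated at Pearson's r of 0.774, given as a description. The share of all these models with the same sign in both castes was not counted. The same-sign counts therefore cannot be called particular to the called models.

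**Figure D5:**
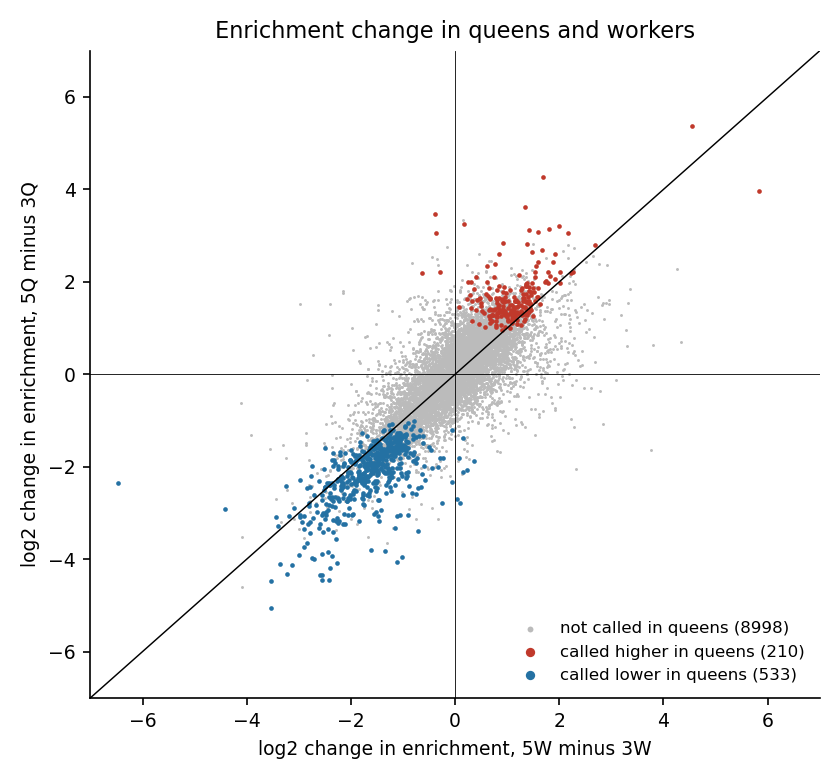
Log2 change in enrichment in queens, 5Q minus 3Q (y axis), against workers, 5W minus 3W (x axis), 1 point per gene model tested in both. Of the models called lower in queens (533 shown, blue) 526 lie left of 0 in workers, and of those called higher (210 shown, red) 206 lie right of 0.

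The bins by 1D ratio gave the range in each caste. The 201 models with a 1D log2 ratio of 3 and over had medians of 0.82 in 5Q and 1.42 in 5W, against 3.37 in 3Q and 3.34 in 3W. The 1284 models from -2 to -1 had medians of -0.21 in 5Q and -0.48 in 5W, against -1.14 in 3Q and -1.19 in 3W. Whether the change itself differed between queens and workers was tested per model in 1 fit of the 16 libraries. It passed for 0 of 10187 models (0%) by limma, with 317 models at an unadjusted p under 0.05 and a smallest adjusted p of 0.116. With a weight per library limma also gave 0, with a pseudocount of 0.1 it gave 11, and without 5Q input replicate 1 it gave 24 and without 5W input replicate 1 it gave 17. A test that misses the threshold does not show that the castes changed alike.

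Among the named models, GB41192 had 24.6 and 74.6 FPKM as deposited in 5W IP and 6.54 and 7.498 in 5W input, against 349.9 and 345 in 3W IP and 7.27 and 9.34 in 3W input. Its worker change was -3.35 (limma adjusted p = 0.0326), beside -4.11 in queens. GB53599 had 23.8 and 67.3 FPKM in 5W IP, against 468 and 323 in 3W IP, a worker change of -3.53 (limma adjusted p = 0.0295). The 3W IP values of both models stood above all 5W values, as in queens. GB55717 had 2032 and 2719 FPKM in 5W input, against 279.9 and 258 in 3W input, and its worker change of -1.15 did not pass (limma adjusted p = 0.0636). The other losses that were named, GB49103, GB45962 and GB54603, passed in workers at limma adjusted p of 0.0427, 0.0338 and 0.0200. None of the named gains that were tested in workers passed there: the limma adjusted p was 0.208 for GB54055, 0.278 for GB55246, 0.0517 for GB44608 and 0.132 for GB46709. For GB55246 the worker change was 3.54 in the libraries numbered 1 and -0.17 in those numbered 2. GB54954 was not tested in workers.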

How the data were processed

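The authors deposited FPKM values, 1 per gene model and library, per the file headers. The submitters' processing notes name HISAT2 2.1.0; for the FPKM program, the genome build and the annotation the record is "not given in the sources used here". The library kit does not mark strand, and 3345 of 15314 models overlap another. Ratios of low FPKM values between replicates did not pile up at a common step (at most 2.94% in any 1% wide window), so whole reads were not recovered and read depth is unknown.

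From these values, FPKM was divided by median-of-ratios factors over the 8 libraries (7723 models above 1 FPKM in all). Models averaging under 1 were dropped, and log2(FPKM + 1) was modelled with limma 3.58.1 in R 4.3.3 (4 group means, eBayes with trend, 4 residual degrees of freedom), with Benjamini-Hochberg adjustment and a threshold of 0.05. Fold changes are on the log2(FPKM + 1) scale, which understates changes of low models. With 1 library of a group left out, the lone library is assumed to vary like the others. The 1D and worker libraries were scaled and fitted among themselves, so levels across these sets are set side by side without a test, and the caste difference was fitted on 16 libraries. Named models are the 2 highest and 2 lowest changes among the calls over all models, those with stable input and those with a sign change; none passed for the caste difference. Figures were drawn with matplotlib 3.10.9. The comparison and its rules were chosen with earlier results of these data known. Gene lists by function could not be located without names, and none was tested.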

Additional observations from a re-analysis of the deposited data

How the results depend on the processing

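The change of GB43330, which did not pass, was 0.25 with quantile normalization against -0.94. The 769 changes in enrichment became 1292 with FPKM as deposited, 511 with a weight per library, 1951 with all 20 libraries in the fit, and 3 to 1666 with 1 library left out. IP against input within 5Q (163) gave 266 with a pseudocount of 0.1, 875 with no filter on low values, 106 with quantile normalization, 6 with a weight per library, 376 with all 20 libraries and 1 to 1172 with 1 library left out. Within 3Q (3397) it gave 5775 with a weight per library and 1040 to 4522 with 1 left out, and the input change (4215) gave 2079 to 4957. The 234 calls among models with stable input became 155 with a weight per library, 570 with all 20 libraries and 1 to 332 with 1 left out. The caste difference (0) gave 11 with a pseudocount of 0.1, 1 with no filter, 1 with quantile normalization and 0 to 24 with 1 of 16 libraries left out. The cause of these moves was not tested.

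The replicate numbers are not explained by the labels. Deviations of IP and input of the same number correlated at 0.417 in 5Q and 0.619 in 3Q, across models and with 2 numbers per group, which does not settle a pairing. With a replicate block of IP and input of a number as a pair, the change in enrichment was called for 2878 models, IP against input in 3Q for 5135 and the models with stable input for 845. With the number as a replicate block over all libraries the counts were 1310 for the change, 71 for IP against input within 5Q and 397 for stable input. All 769 calls were kept by the pairs and 766 by the number. Read depth is unknown, so the limit it sets on low models could not be given.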
